A study of Caenorhabditis elegans with 6 samples.

Results

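Adult Caenorhabditis elegans that lack SER-3 and SER-6, a pair of octopamine receptors, were set against the wild type after both had been kept on octopamine. The comparison is the log2 ratio of 1 array of ser-3(ok2007);ser-6(tm2146) animals over 1 array of N2 animals, both treated, so its members are 2 of the 6 arrays of the series, and they were chosen by strain and treatment alone. The other groups used here are untreated ser-3;ser-6 and untreated N2 animals, and daf-16(mu86) animals with and without octopamine, with 1 array each. Animals from synchronised eggs grew for 3 days and then spent 2 days on plates with or without octopamine at 20 mg/mL, after which whole bodies were frozen and total RNA was taken. The age is given as day 4 adult in one label and as 5 days in the extraction protocol. N2 is the laboratory wild type, and the daf-16 strain carries a mutation in the FOXO transcription factor gene of the insulin pathway. No label says how many animals or cultures stood behind an array, or whether any strain was outcrossed.

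Octopamine is the invertebrate counterpart of noradrenaline. In C. elegans it is made from tyramine by the tyramine beta-hydroxylase TBH-1 and is known as a signal of food shortage. SER-3 and SER-6 are G protein-coupled receptors for it, and OCTR-1 is another. What octopamine-exposed animals without SER-3 and SER-6 have in excess or lack was the question of the comparison.

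Signals are given as deposited, in the arbitrary linear units of the array, and each log2 ratio is ser-3;ser-6 minus N2 after the median of each array was subtracted. With 1 array a side, a ratio has no replicate error and no p-value, and genes are described by whether they reached 2-fold. Other readings stand beside it. The untreated pair of the same strains shares no array with the treated pair. A test comes from an additive limma model of strain and octopamine over all 6 arrays, whose strain term is the average difference of ser-3;ser-6 from N2 over both treatments. The words rose and fell are kept for genes past an adjusted p of 0.05 in that model, with Benjamini-Hochberg adjustment over 10251 genes. It cannot test whether a strain difference depends on octopamine, and its p-values measure the spread between these arrays alone.

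Median signals were alike, at 26 in treated ser-3;ser-6 and 25.3 in treated N2 animals, against 25.1 and 23.8 in the untreated arrays of the same strains. Markers of 8 tissues were read. The filter signal of 15.5 was passed by 11 of 12 intestinal and 9 of 10 body wall muscle genes. It was also passed by 9 of 10 neuronal and 12 of 12 germline genes. The shares were lower for hypodermis (8 of 10), pharynx (6 of 8), embryo (7 of 11) and sperm (4 of 10). The 18 probe sets for RNAs added during labelling and hybridisation were lower on the treated ser-3;ser-6 array than on the treated N2 array in 18 of 18 cases, with a median log2 ratio of -0.29 (range -0.92 to -0.05). In the untreated pair the median was -0.13, with 16 of 18 lower. The ratio of 3' to 5' signal, a measure of RNA integrity, was 6.23 and 5.77 for ubiquitin, 1.96 and 1.79 for actin and 1.09 and 1.05 for Gapdh in treated ser-3;ser-6 and treated N2 animals. The part of these differences in the gene ratios was not tested.

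The targeted genes gave little to check the labels with. The ser-3 probe set read 17.7 in treated ser-3;ser-6 and 25.7 in treated N2 animals, and 18.2 and 22.3 in the same strains without octopamine. It was thus lower in the mutant in both pairs, at log2 ratios of -0.57 and -0.37, but all of its signals lay near the filter. None of the array's probe sets was assigned to ser-6, and the sources used here do not place the ser-3 probes relative to the deletion. Among the 20 nearest measured neighbours of ser-3 in gene order 0 reached 2-fold, and among those of ser-6 it was 2, the proteoglycan gene cpg-9 at -1.61 (-0.91 with 16 added to every signal) and the nicotinate phosphoribosyltransferase gene nprt-1 at -1.01. In the model nprt-1 fell by 0.88 ± 0.14 (SE, adjusted p = 0.0259, limma with Benjamini-Hochberg adjustment), whereas cpg-9 did not pass.

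The octopamine system itself differed less than 2-fold. The gene of the synthesis enzyme, tbh-1, had signals of 871 in treated ser-3;ser-6 and 1341 in treated N2 animals, against 1285 and 1378 without octopamine, and daf-16 animals had 1198 with and 1221 without. The treated ser-3;ser-6 array was the lowest of the 6, with log2 ratios of -0.66 in the treated and -0.18 in the untreated pair. The tyrosine decarboxylase gene tdc-1 was at -0.19 and -0.13 and the receptor gene octr-1 at -0.06 and -0.30. Of 4 octopamine and tyramine genes above the filter, 0 passed the model in either direction. Downstream, 28 G protein and CREB signalling genes had a median of -0.02, which became 0.05 after quantile normalization, and again 0 passed. Their ends were the regulator of G protein signalling rgs-1, at 31.8 against 16.3 (log2 ratio 0.92), and the receptor kinase gene grk-1, at 44.7 against 78.7 (-0.85). The untreated ratios of rgs-1 and grk-1 were 0.15 and 0.00. The other probe set of each gene gave a smaller treated ratio, 0.22 for rgs-1 and -0.06 for grk-1. Among 10 serotonin and dopamine genes, 1 fell: cat-4, the GTP cyclohydrolase that makes the cofactor of amine synthesis, read 165 and 233 in the treated pair and 179 and 358 in the untreated pair, a call lost after quantile normalization and without the variance trend.

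Far more genes were lower than higher in the treated mutant. Of 10251 genes, 15 (0.146%) were at least 2-fold higher in treated ser-3;ser-6 than in treated N2 animals and 133 (1.30%) at least 2-fold lower. After quantile normalization the counts were 28 and 106, so that the higher genes made up 20.9% of the list, against 10.1% with medians subtracted. The untreated pair held 22 higher (0.215%) and 69 lower genes (0.673%). The model called 41 genes higher (0.400%) and 228 lower (2.22%), where values without centring gave 47 and 122 and quantile normalization 54 and 91, with higher shares of 15.2%, 27.8% and 37.2%. The excess of lower genes thus held under each scaling, and its size did not. Of the 148 genes, 7 reached 4-fold.

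Part of the treated difference was also present without octopamine. Of the 148 genes past 2-fold in the treated pair, 31 (20.9%) were past 2-fold in the same direction in the untreated pair, and these were 34.1% of the 91 genes on the untreated list. By direction, 5 of 15 higher and 26 of 133 lower genes recurred. A weaker lean was wider: 117 of the 133 lower genes (88.0%) had an untreated ratio below 0, as had 59.1% of all genes, and 14 of the 15 higher genes had one above 0. Over all 10251 genes the ratios of both pairs had a Pearson's r of 0.459 and a Spearman's rho of 0.375, as a description across genes, which are not independent and share strain, probe set and signal level. An untreated ratio under 0.5 in size was found for 75 of the 133 lower and 5 of the 15 higher genes. The share of all genes with so small an untreated ratio was not counted. Over all genes the untreated ratios had a standard deviation of 0.307, so small ones were common.

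**Figure D1:**
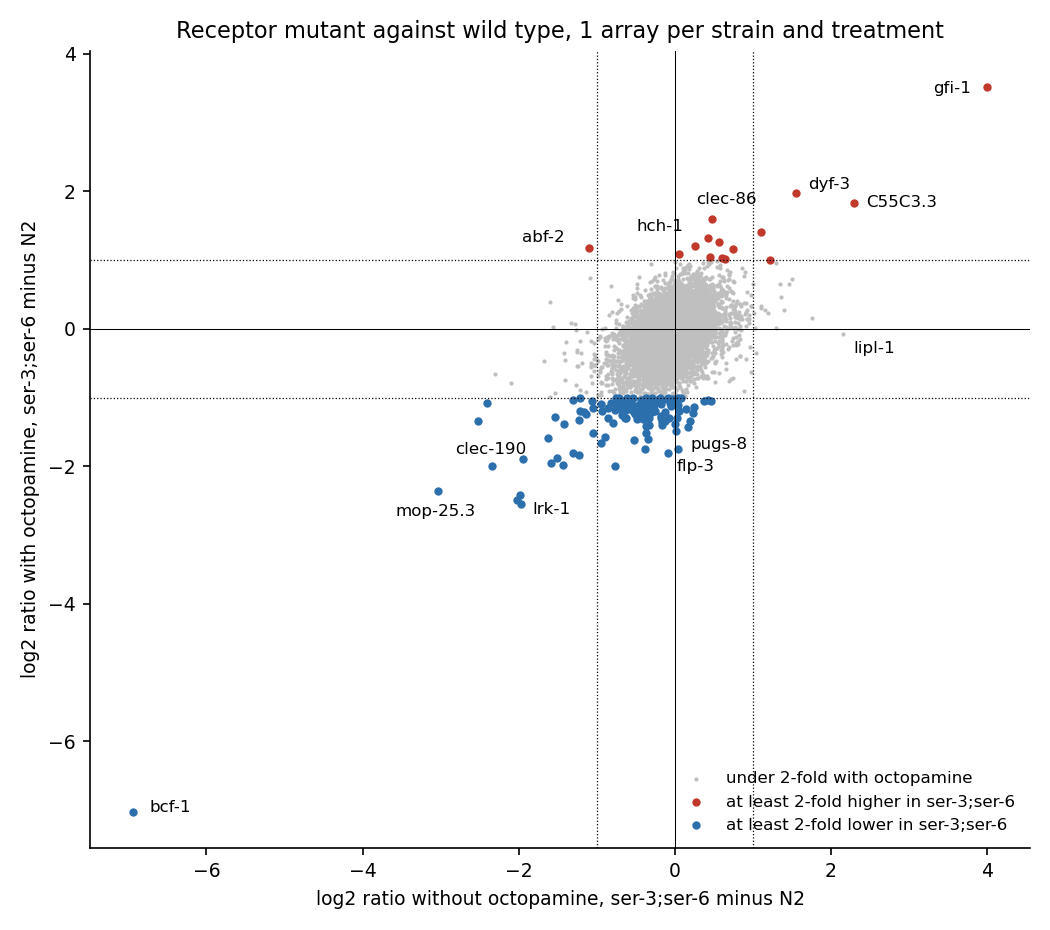
Each point is 1 of 10251 genes, with the log2 ratio of ser-3;ser-6 minus N2 without octopamine on the x axis and with octopamine on the y axis. Dotted lines mark 2-fold, red points are the 15 genes higher and blue points the 133 genes lower with octopamine, and bcf-1 and gfi-1 stand far from the rest in both pairs.

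The most extreme ratios belonged to a pair of neighbouring genes. bcf-1, named for a role in bacterial colonisation of the gut, had signals of 14.3 in treated ser-3;ser-6 and 1800 in treated N2 animals, and of 20.0 and 2321 without octopamine. In daf-16 animals it read 2142 with and 2084 without octopamine, so both ser-3;ser-6 arrays were near the filter signal and the other 4 were bright. The log2 ratios were -7.02 and -6.94, the first of them 130-fold in linear terms, and the model gave -6.98 ± 0.14 (SE, adjusted p = 1.42e-07, limma with Benjamini-Hochberg adjustment). The size of that ratio leans on a signal below the filter, and with 16 added to every signal it was -5.93.

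gfi-1 lies next to bcf-1 in the gene order of assembly WBcel235, with no other protein-coding gene between them, and it differed in the opposite direction. It had 1336 in treated ser-3;ser-6 and 113 in treated N2 animals, 2395 and 142 without octopamine, and 106 and 79.8 in treated and untreated daf-16 animals. Only the ser-3;ser-6 arrays were high, at log2 ratios of 3.52 and 4.00, and the gene rose in the model by 3.76 ± 0.24 (SE, adjusted p = 0.000577, limma with Benjamini-Hochberg adjustment). The probe sets of both genes carry a suffix that marks probes matching more than 1 transcript, and neither gene has another probe set here.

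A similar strain difference was seen for lrk-1 and mop-25.3, whose annotated spans overlap. lrk-1 is the C. elegans member of the LRRK kinase family, and mop-25.3 encodes a relative of the kinase scaffold MO25. mop-25.3 read 39.4 in treated ser-3;ser-6 and 197 in treated N2 animals, 27.8 and 217 without octopamine, and 226 and 228 in treated and untreated daf-16 animals. lrk-1 read 11.34 and 59.0 in the treated pair and 12.56 and 46.7 in the untreated pair. Both ser-3;ser-6 arrays were the lowest of the 6 for each gene. In the model mop-25.3 fell by 2.70 ± 0.17 and lrk-1 by 2.2 ± 0.16 (SE, adjusted p = 0.000577 and 0.0011, limma with Benjamini-Hochberg adjustment). A second, dim lrk-1 probe set, at about 5, had a ratio of -0.09.

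Several enzymes, transporters and small secreted proteins were low in the mutant in both pairs. fip-2, a fungus-induced-protein relative, had 64.1 in treated ser-3;ser-6 and 351 in treated N2 animals and 76.1 and 292 without octopamine, and its other probe set gave -2.57 beside -2.49. haf-6, an ABC half-transporter, had 15.4 and 55.4 with octopamine and 19.3 and 70.5 without. haao-1, the 3-hydroxyanthranilate dioxygenase of the kynurenine pathway, had 12.7 and 37 with octopamine and 18.3 and 53.1 without. For these genes the daf-16 arrays lay with N2, and all 3 fell in the model, at -1.60 ± 0.13 for haao-1, -1.92 ± 0.13 for haf-6 and -2.25 ± 0.14 for fip-2 (SE, highest adjusted p = 0.00175, limma with Benjamini-Hochberg adjustment). The C-type lectin genes clec-190 and clec-222 also fell, with treated ratios of -2.0 and -1.80 and untreated ratios of -2.34 and -1.3. So did Y110A2AL.9 (-2.54 and -1.97), its neighbour Y110A2AL.3 (-1.15 and -1.05), T13F3.6 (-1.95 and -1.58), Y73F4A.1 (-1.98 and -1.43), C14C6.5 (-1.84 and -1.23) and mbug-1 (-1.87 and -1.51). Low signals carry part of these ratios: with 16 added, the treated ratio was -1.15 for clec-190, -0.91 for haao-1, -1.21 for haf-6, -1.48 for lrk-1, -1.60 for Y110A2AL.9 and -1.27 for Y73F4A.1.

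Genes high in the mutant in both pairs were fewer. C55C3.3 read 76.9 in treated ser-3;ser-6 and 21 in treated N2 animals, and 108 and 20.9 without octopamine, with daf-16 animals at 19.5 in both states. dyf-3, which is needed to build sensory cilia, had 42.6 and 10.5 in the treated pair and 41.7 and 13.5 in the untreated pair, and its N2 signals were below the filter, so that the treated ratio of 1.98 became 1.12 with 16 added. Only the ser-3;ser-6 arrays were high for either gene. C50F7.5 and F15D4.5 were 2-fold higher in both pairs as well, at 1.41 and 1.11 and at 1.01 and 1.22, and their signals were higher with octopamine than without in every strain. All 4 rose in the model, by 2.06 ± 0.16, 1.76 ± 0.16, 1.26 ± 0.20 and 1.11 ± 0.13 in the order named (SE, highest adjusted p = 0.027, limma with Benjamini-Hochberg adjustment). The call of C50F7.5 was lost with probe sets averaged, at an adjusted p of 0.177, and without the variance trend, and 0.177 was the highest over its 9 alternatives.

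**Figure D2:**
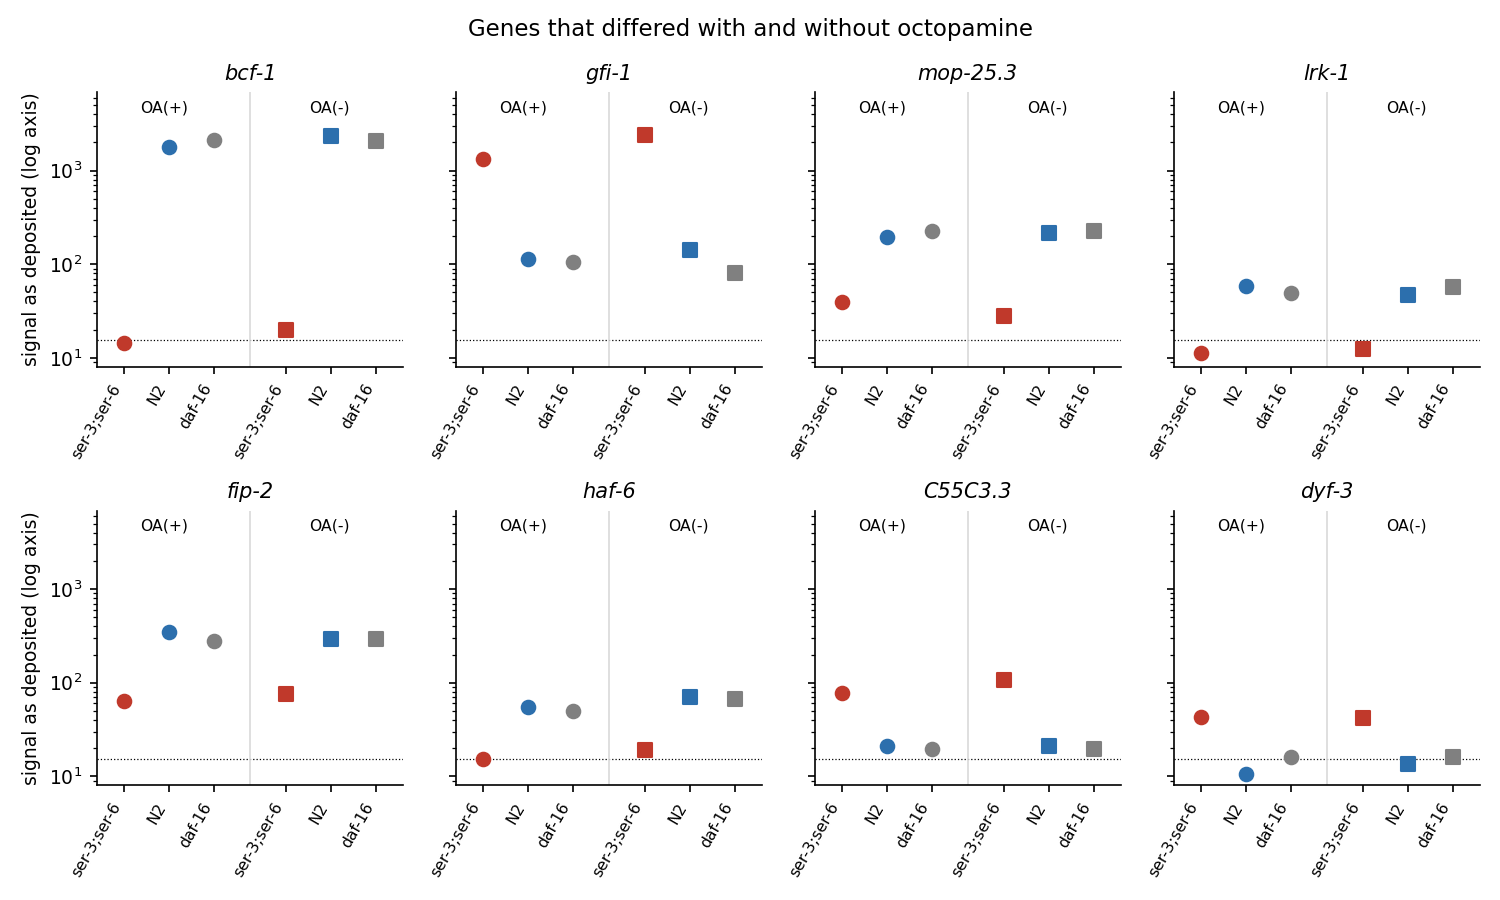
Signals as deposited of 8 genes on each of the 6 arrays, on a log axis, with circles for octopamine, squares for no octopamine and a dotted line at the filter signal of 15.5. In every panel both ser-3;ser-6 arrays (red) stand apart from the N2 (blue) and daf-16 (grey) arrays, downward for bcf-1, mop-25.3, lrk-1, fip-2 and haf-6 and upward for gfi-1, C55C3.3 and dyf-3.

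Neighbours past 2-fold together were counted along the gene order. Among 10055 genes placed, 14 pairs of adjacent measured genes were both past 2-fold in the treated pair. Of these pairs 13 had the same direction, bcf-1 with gfi-1 being the exception. Since 133 of the 148 genes past 2-fold were lower, most pairs drawn from them would share a direction wherever they lie. The number of pairs to expect was not worked out, and up to 6 other protein-coding genes lay between the members of a pair. The trypsin-inhibitor-like gene swm-1, which prevents early sperm activation, stood with C25E10.8 and C25E10.10 at treated ratios of -1.17, -1.13 and -1.48, against untreated ratios of -0.31, -0.42 and 0.01. The saposin-like spp-12 and the lipid chaperone gene lbp-8 were at -1.05 and -1.22 with octopamine and at 0.46 and 0.23 without.

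The second set of genes differed in the treated pair and little in the untreated one. It has no test, since a strain difference that depends on octopamine counts as error in the model. flp-3, which encodes FMRFamide-like neuropeptides, had 10.6 in treated ser-3;ser-6 and 35.9 in treated N2 animals, whereas the untreated arrays read 20.6 and 20.7. Its treated ratio of -1.80 rests on a signal below the filter and was -0.99 with 16 added to every signal. dod-6, a gene named for acting downstream of DAF-16, had 70.0 and 228 with octopamine and 151 and 185 without. The fatty acid and retinol binding protein gene far-8 had 114 and 297 with octopamine and 282 and 237 without. In all 3 the treated ser-3;ser-6 array was the lowest of the 6, and treated daf-16 animals, at 35.8, 208 and 260, lay near treated N2.

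Others of this kind were pugs-8, at 19.3 and 62.9 with octopamine (log2 ratio -1.74) and 56.7 and 52.1 without (0.04), and C25E10.10, at 53.2 and 145 with (-1.48) and 103.9 and 97.8 without (0.01). C07E3.9 was at -1.60 and -0.35, T19D12.6 at -1.52 and -0.37 and Y51H7C.1 at -1.41 and -0.37. The other probe set of T19D12.6 gave smaller ratios, -0.42 and -0.11. The glucuronosyltransferase genes ugt-21 (-1.34 and 0.20) and ugt-43 (-1.31 and -0.48), the aquaporin gene aqp-8 (-1.12 and -0.05) and the nuclear receptor genes nhr-100 (-1.02 and -0.02) and nhr-256 (-1.01 and 0.04) showed the same form. For aqp-8 the treated N2 signal was 132 and the untreated one 29.4, against 62.5 and 30.1 in ser-3;ser-6 animals, so that the strains differed where octopamine-treated N2 was high.

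In the upward direction 5 genes past 2-fold had a small untreated ratio. The C-type lectin gene clec-86 had 213 in treated ser-3;ser-6 and 68.3 in treated N2 animals and 88.8 and 60.2 without octopamine, giving 1.60 and 0.48. The astacin protease gene hch-1, which acts in hatching, had 193 and 74.5 with octopamine and 33.8 and 23.9 without. The laminin alpha gene lam-3, a basement membrane component, had 88.2 and 40.3 with octopamine and 36.9 and 33.7 without. A second, dimmer lam-3 probe set gave a treated ratio of 0.43 beside 1.09. For all 3 the treated ser-3;ser-6 array was the highest of the 6, although hch-1 was also higher on every treated array than on any untreated one. The remaining ones were the intermediate filament gene ifp-1 (1.21 and 0.26) and F57H12.6 (1.04 and 0.45), both with N2 signals near or below the filter. Just short of 2-fold, pals-22, a repressor of the response to intracellular pathogens, had 80.2 and 39.98 with octopamine and 38 and 35.9 without.

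**Figure D3:**
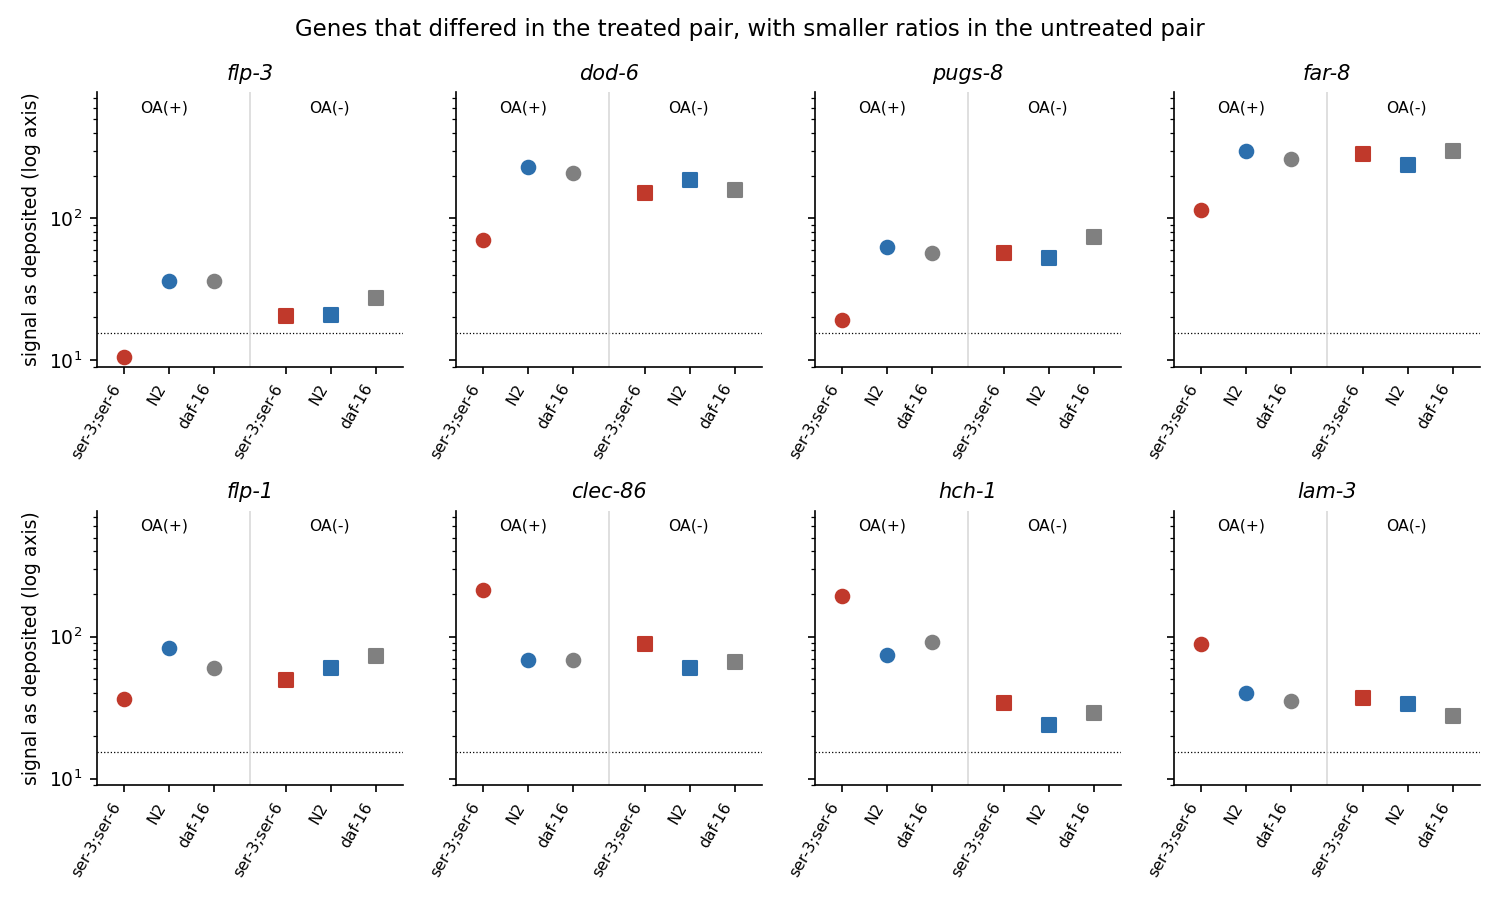
Signals as deposited of 8 genes on the 6 arrays, on a log axis, with circles for octopamine, squares for no octopamine and a dotted line at 15.5. The treated ser-3;ser-6 array (leftmost point) is the lowest of the 6 for flp-3, dod-6, pugs-8, far-8 and flp-1 and the highest for clec-86, hch-1 and lam-3.

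Neuropeptide genes leaned lower in the treated pair. Of 63 flp and nlp genes above the filter, 53 had a treated ratio below 0, as had 59.7% of all genes, and 37 an untreated one. Their median was -0.28 with and -0.08 without octopamine, beside -0.07 and -0.05 for all genes. Those past 2-fold were flp-3, flp-1 (36.3 and 83.4 with octopamine, 49.6 and 60.5 without), nlp-50 (14.5 and 32.2, against 25.6 and 32.9), nlp-49 (32 and 67.5, against 52.4 and 48.4) and flp-18 (29 and 56.8, against 47.2 and 47.4). The probe sets of flp-1 were not of one size, with the others at -0.44 and -1.12 beside -1.24. In the model 3 of the 63 members fell and 0 rose, where 2.22% of all genes fell and 0.400% rose. Those that fell were nlp-6, nlp-27 and nlp-33, of which nlp-27 and nlp-33 belong to the antimicrobial-peptide-like nlp genes. The count of falls was 2 without centring, after quantile normalization and without the variance trend, where nlp-27 lost its call. With probe sets averaged nlp-6 lost its call, at an adjusted p of 0.238, the highest over its alternatives, by limma with Benjamini-Hochberg adjustment. The neuropeptide processing genes egl-21 (-0.58 and -0.15) and egl-3 (-0.40 and -0.05) had the same lean, while the median of 9 neuronal markers, which include both, was -0.14 with and -0.04 without octopamine. In whole animals, fewer cells of a type and less RNA per cell cannot be told apart.

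Body wall muscle genes were lower in both pairs. All 9 markers above the filter had ratios below 0 in each, with medians of -0.67 and -0.34, and their summed signal was 5983 in treated ser-3;ser-6 and 9156 in treated N2 animals, against 5982 and 7329 without octopamine and 8755 and 8024 in treated and untreated daf-16 animals. With the probe set used for each gene, none reached 2-fold. Another probe set did for pat-10, at -1.12, and for unc-15, at -1.05, while a further one of unc-15 gave -0.62. The other lev-11 probe sets ran from -0.89 to 0.42, the last of them dim. In the model 6 markers fell and 0 rose, where 2.22% of all genes fell and 0.400% rose. Those that fell, by 0.47 to 0.71, were the troponin genes tnt-2, unc-27 and pat-10, the tropomyosin gene lev-11, the actin gene act-4 and the paramyosin gene unc-15. The myosin heavy chain genes unc-54 (178 and 260 in the treated pair) and myo-3 (54.9 and 68.2) did not pass. The counts of falls were 1 in values without centring, 1 after quantile normalization and 0 without the variance trend, while the list's median stayed below 0, at -0.63 and -0.48 under those scalings. A troponin I gene outside the list, tni-3, picked after its value was seen, had 60.5 and 153 with octopamine and 91.0 and 149 without.

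Sperm and cuticle genes were examined next. All 23 major sperm protein genes, which encode the cytoskeletal and signalling protein of nematode sperm, had ratios below 0 in both pairs, with medians of -0.68 and -0.53, and their summed signal was 1220 in treated ser-3;ser-6 and 2052 in treated N2 animals against 1350 and 1850 untreated. In treated and untreated daf-16 animals it was 1048 and 1387, so treated ser-3;ser-6 lay between the other treated strains, and untreated ser-3;ser-6 was the lowest untreated strain. 4 reached 2-fold, among them msp-55 at -1.26 and msp-76 at -1.21. In the model 6 of the 23 fell and 0 rose, where 2.22% of all genes fell, and 3 fell after quantile normalization. All 23 probe sets are shared between transcripts, so these members are not separate readings. The 18 other sperm genes had a median of -0.19 in each pair and 0 calls. Of 125 cuticle collagen genes, 12 fell and 0 rose in the model, where 2.22% of all genes fell and 0.400% rose. The counts of collagen falls were 5 in values without centring and 4 after quantile normalization. Among them col-8 (742 and 1533 with octopamine, 687 and 1243 without), col-20 and col-80 fell by 0.94 to 1.05. The median of the collagen genes was -0.13 with and -0.20 without octopamine.

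Beta-oxidation and proteasome genes had small ratios below 0 in most members with octopamine. Over all genes, 59.7% of treated and 59.1% of untreated ratios were below 0. Of 33 beta-oxidation genes, 31 had a treated and 18 an untreated ratio below 0, with medians of -0.25 and -0.03. None reached 2-fold, and the carnitine palmitoyltransferase gene cpt-3 was the 1 that fell in the model (0.63 ± 0.13, adjusted p = 0.0484, limma with Benjamini-Hochberg adjustment), a call lost under 5 of 8 alternatives. The 14 desaturase and elongase genes were more mixed, with 10 treated ratios below and 4 above 0 and medians of -0.24 and 0.07. The stearoyl-CoA desaturase gene fat-7, at 452 and 642 with octopamine and 726 and 1045.5 without, was the 1 that fell in the model (-0.58 ± 0.09, adjusted p = 0.0258, limma with Benjamini-Hochberg adjustment), a call lost without the variance trend. The elongase gene elo-3, which did not pass, had 149 and 237 in the treated pair and 261 and 184 in the untreated pair. Of 31 proteasome subunit genes, 29 had a treated ratio below 0 and 18 an untreated one, with medians of -0.19 and -0.02, and pas-4 was the 1 that fell in the model, a call lost under 6 of 8 alternatives. The treated medians of these 3 lists shrank to -0.15, -0.10 and -0.06 after quantile normalization, where the median of all genes was 0.01. By comparison, 75 cytosolic ribosomal protein genes had a treated median of -0.02, or 0.04 after quantile normalization.

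Lists of defence genes differed from each other. Among 26 infection-response genes, 3 were past 2-fold lower in the treated pair and 6 in the untreated pair, with medians of -0.18 and -0.43. C32H11.4 read 70.1 in treated ser-3;ser-6 and 144 in treated N2 animals and 150 and 753 without octopamine. dod-24 read 154 and 300 with octopamine and 921 and 2011 without. sysm-1, dod-17 and irg-5 fell with C32H11.4 and dod-24. That made 5 of 26 that fell and 0 that rose in the model, where 2.22% of all genes fell and 0.400% rose. The count of falls was 2 after quantile normalization and 0 without the variance trend. The transthyretin-related genes, which encode secreted proteins, had 26 of 30 members below 0 in each pair, with medians of -0.35 and -0.25. Over all genes 59.7% were below 0 with and 59.1% without octopamine. In the model 3 transthyretin-related genes fell, or 2 without centring, 1 after quantile normalization and 0 without the variance trend. The saposin-like gene spp-15 fell as well, at 150 and 348 with octopamine and 214 and 324 without. Of 69 C-type lectin genes 41 had a treated ratio below 0, near the 59.7% of all genes, with a median of -0.12. In the model 5 lectin genes fell and 0 rose, beside 2.22% and 0.400% of all genes. After quantile normalization 3 fell and 1 rose, and without the variance trend 3 fell. Of 12 lysozyme genes 5 were below and 7 above 0, with medians of 0.07 and 0.02, and 0 passed.

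DAF-16 targets split. The 21 class I targets, genes that DAF-16 activates under low insulin signalling, showed medians of 0.12 and 0.11, with 10 treated ratios below and 11 above 0. At the low end stood dod-6 and spp-12, and at the high end ctl-2, mtl-1, dod-3 and ftn-1. The metallothionein gene mtl-1 rose, with 433 in treated ser-3;ser-6 and 253 in treated N2 animals, 688 and 230 without octopamine, and 24.5 and 28.9 in treated and untreated daf-16 animals. The reporter gene gst-4 fell, with 667 and 883 with octopamine and 317 and 799 without, a call lost under 5 of 9 alternatives. The peroxisomal catalase gene ctl-2 had 717 and 410 with octopamine (0.77) and 405 and 330 without (0.22), and it did not pass the model. The array's 3 catalase control probe sets gave 0.83, 0.50 and 0.51 in the treated and 0.29, -0.08 and 0.18 in the untreated pair. By their names they are shared probe sets for parts of 1 control, so they are not separate readings. The 12 genes of another DAF-16 list, the class II targets, had medians of -0.13 and -0.24. Of these, 7 had a treated and 10 an untreated ratio below 0, beside 59.7% and 59.1% of all genes. In the model dod-17 and dod-24 were the 2 that fell, or 1 gene after quantile normalization and 0 without the variance trend. In the insulin pathway itself the Raptor gene daf-15 and the kinase gene akt-1 fell, the first not after quantile normalization, with probe sets averaged or without the variance trend, the second not under 7 of 8 alternatives.

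Among histone genes, the calls were of linker histones. hil-7, his-24, hil-3 and hil-2, all H1 genes, rose in the model by 0.82 ± 0.14, 1.13 ± 0.11, 1.00 ± 0.16 and 0.64 ± 0.11 (SE, highest adjusted p = 0.032, limma with Benjamini-Hochberg adjustment), and they were the 4 that rose among 31 histone genes, with 0 that fell. Of all genes, 0.400% rose and 2.22% fell. his-24 had 2142 in treated ser-3;ser-6 and 1070.5 in treated N2 animals and 655 and 251 without octopamine. Its other probe set, which is not shared, read 1125 and 1030 in the treated pair. That gave a treated ratio of 0.09 beside 0.96, and an untreated one of 0.89 beside 1.30. hil-3 had 1023 and 635 with octopamine and 444 and 165 without, and its other probe set gave a treated ratio of 0.93 beside 0.65. For hil-7 the other probe sets gave smaller ratios. They were 0.82 and 0.42 beside 1.03 with octopamine, and 0.29 and 0.18 beside 0.61 without. Another linker histone gene, hil-1, had ratios of 0.59 and 0.05 and did not pass (adjusted p = 0.315, limma with Benjamini-Hochberg adjustment). Within each treatment the ser-3;ser-6 array was the highest of the 3 strains for the 4 that rose. Without the variance trend hil-2, hil-3 and hil-7 lost their calls, and without shared probe sets his-24 did, at an adjusted p of 0.139, the highest over its alternatives. The call of hil-7 was also lost with probe sets averaged. In all, 21 of the 31 histone genes are read by shared probe sets. The list's median was 0.16 with and -0.04 without octopamine.

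The median ratio of 7 embryo markers was 0.42 with and 0.03 without octopamine. In each pair 1 of the 7 had a ratio below 0, beside 59.7% and 59.1% of all genes with and without octopamine. The embryonic transcription factor genes nhr-25 (64.6 and 39.0 with octopamine, 32.6 and 30.8 without) and tbx-38 stood with hch-1, and 0 of 7 passed the model. Adults carry eggs, and the number of eggs held per animal is not given in the labels. The 12 germline and oocyte markers had medians of -0.13 and -0.17, and the first became 0.03 after quantile normalization. The 11 intestine markers had 0.07 and 0.25. The part of tissue makeup in the other ratios was not tested.

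**Figure D4:**
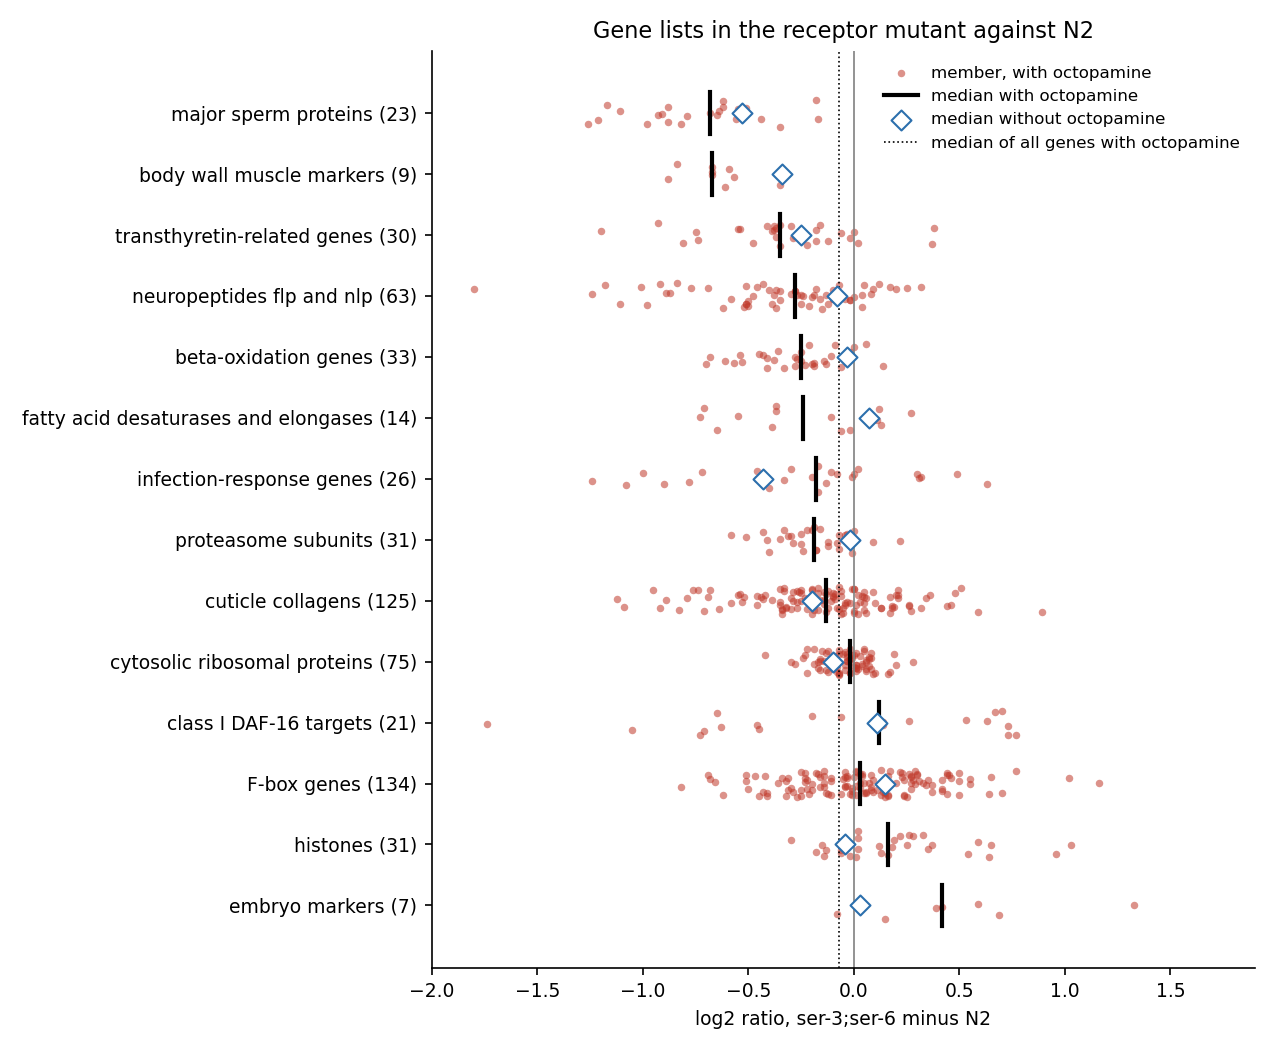
Log2 ratios of ser-3;ser-6 minus N2 for the members of 14 gene lists, with the number of genes above the filter in brackets. Red points are members with octopamine, black bars their median, open diamonds the median without octopamine, and the dotted line the median of all genes, -0.07. Of the lists shown, major sperm proteins and body wall muscle markers have the lowest medians with octopamine, -0.68 and -0.67, while neuropeptide, beta-oxidation, desaturase and proteasome genes have lower medians with octopamine than without.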

How the data were processed

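RNA from whole animals was read on 6 single-colour Affymetrix arrays, 1 per strain and treatment. Deposited values are on a linear intensity scale, and the sources used here do not say how the authors summarised or normalised them. The number of arrays limits the precision. Of 22625 probe sets, 77 controls were set aside, and 20766 of the rest had 1 gene in the platform annotation, 887 several and 895 none. Entrez identifiers matched 20701 of them to WBcel235 names. For each of 17118 genes the probe set with the highest mean was used. Intensities were converted to log2, array medians were subtracted, and 10251 genes with a mean at or above the 40th percentile (15.5) were kept. limma 3.58.1 in R 4.3.3 fitted strain and octopamine with a variance trend (2 residual and 6.28 prior degrees of freedom). On simulated data for this strain term, with 10251 genes and 5 rounds, it recovered 0.896%, 52.2% and 86.7% of log2 changes of 0.5, 1 and 2. In those simulations 1.9% of calls were false. The simulated noise was independent between genes, without array-wide shifts or strain differences that depend on octopamine. Its spread was shuffled between genes, so it did not follow signal as the variance trend allows for. These rates therefore give neither the recovery nor the share of false calls on the real arrays. Members and the 51 gene lists were chosen with earlier results of these data known. Named genes were the 20 highest and 20 lowest treated ratios, 8 each way with an untreated ratio under 0.5, up to 5 extreme members of each list, the targeted genes and neighbours past 2-fold; others were chosen after their values were seen, namely nlp-6, pat-10, unc-15, unc-54, myo-3, hil-2, irg-5, nprt-1, tni-3, col-80, akt-1 and dod-3. Alternatives covered scaling, filter, pseudocount, probe set choice, shared probe sets, the trend and the daf-16 arrays. No sequences are shown.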

Additional observations from a re-analysis of the deposited data

Results flagged for a closer look

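The antibacterial factor gene abf-2 differed in opposite directions in the treated and untreated pairs. Its signal was 81.8 in treated ser-3;ser-6 and 35.2 in treated N2 animals, a log2 ratio of 1.18, and 28.9 and 58.8 without octopamine, a log2 ratio of -1.1. In daf-16 animals it read 20.1 with and 34.9 without octopamine. The difference between the pairs was not tested, since each rests on 1 array a side, and the probe set is shared between transcripts.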

How the results depend on the processing

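No paired analysis was possible because every array carries the replicate number 1, which gives no replicate block. The model already sets the strains against each other within each treatment. Of the 148 genes past 2-fold in the treated pair, 131 were past it in values without centring and 120 after quantile normalization, and no named gene past 2-fold changed sign under the other scalings, filters, pseudocount or probe set choices. With 16 added, however, 39 of 77 named genes past 2-fold stayed past it and 10 named genes moved by over 1.5 times. The count of higher genes in the treated pair, 15, became 28 after quantile normalization, 7 with the filter at the 60th percentile, 6 with 16 added to the signal and 8 without shared probe sets. The 133 lower genes became 53 with 16 added. In the untreated pair the 69 lower genes became 39 with the stricter filter and 35 with 16 added. The model's 228 lower genes became 122 without centring, 91 after quantile normalization, 76 without the variance trend and 548 without the daf-16 arrays, and its 41 higher genes became 11 and 139 under the last 2. The fit without the daf-16 arrays held all 269 main calls. The share of treated genes recurring untreated ranged from 19.4% to 27.1%. Of the 148 genes, 23 had a signal below the filter on at least 1 of the 4 arrays of both strains and 55 were read by shared probe sets. The cause of these shifts was not tested.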

Other observations

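A further 34 genes were past 2-fold in the untreated pair with a treated ratio under 0.5 in size, 12 higher and 22 lower, and those named here were chosen after their values were seen. The lysosomal lipase gene lipl-1 had 168 in untreated ser-3;ser-6 and 36.0 in untreated N2 animals, and 31.4 and 32 with octopamine, so that 1 array of 6 was high. F09C8.1 had 380 and 106 untreated and 106 and 92.6 with octopamine, and the asparagine synthetase gene asns-2 had 542 and 194 untreated and 1387 and 1121 with octopamine. Among the lower ones, the infection-response gene dod-22 had 21 and 63.2 untreated and 18.1 and 24.3 with octopamine, and the carboxypeptidase gene pcp-2 had 32.6 and 77.8 untreated and 19.6 and 18 with octopamine.

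Ratios leaned with signal and gene length. Over 5 equal bins of mean signal, from dim to bright, the treated median was 0.03, -0.04, -0.10, -0.12 and -0.11. Over 5 equal bins of annotated gene length, from short to long, it was -0.12, -0.10, -0.08, -0.04 and -0.02, and the numbers of genes at least 2-fold lower were 54, 31, 24, 11 and 13.

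Outside the gene counts, 738 probe sets without a single assigned gene passed the filter, of which 1 was at least 2-fold higher and 28 lower in treated ser-3;ser-6 than in treated N2 animals. One listed for clec-48 and clec-49 had 226 in treated ser-3;ser-6 and 779 in treated N2 animals, and 627 and 766 without octopamine.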
